A study of Mus musculus with 12 samples.

Results

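The mitochondrial calcium uniporter genes were described here as 8 genes matched by their symbols in the count and TPM tables: Mcu, Mcub, Smdt1, Micu2, Micu3, Letm1, Slc8b1 and Vdac1, which are 8 of 78298 genes in the count table. All 8 passed the filter on low counts that left 13318 genes for testing. The cells were C2C12, an established line of mouse myoblasts that fuse into contracting fibres. Wild-type cells (WT, 6 libraries) were compared with RGECO, a C2C12 line with a genetically encoded indicator of calcium (6 libraries). Cells of both lines were on a hydrogel made of methacrylated gelatin and were taken for RNA after 14 days of differentiation, in medium that held 10% horse serum, 50 ng per ml IGF-1 and 1 mg per ml aminocaproic acid. The sources used here do not give the promoter of the indicator or whether RGECO is 1 clone.

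The uniporter carries calcium from the space between the mitochondrial membranes into the matrix, driven by the membrane potential. Mcu encodes the pore, Mcub a paralogue that lowers conductance when it enters the pore, and Smdt1 encodes EMRE, a small subunit that links the pore to its gatekeepers. Micu2 and Micu3 encode EF-hand proteins of the gate that keeps the pore closed at resting calcium. Slc8b1 (NCLX) returns calcium to the cytosol in exchange for sodium, Letm1 is an inner-membrane ion exchanger, and Vdac1 is the channel of the outer membrane that calcium and metabolites cross first. In muscle, matrix calcium follows contraction and stimulates dehydrogenases of the citric acid cycle.

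The promoter windows of Mcu, Mcub and Vdac1 show the sequence upstream of the pore, of its paralogue and of the most abundant gene of the set. RefSeq promoter entries on build GRCm38.p6 were matched for 6 of the 8 genes, and each window below holds 250 bases before a start, with no annotated exon in it. Each is written 5′ to 3′ on the gene's own strand, and capitals mark motif matches on either strand.
Mcu, chr10:59616693-59616942, minus strand: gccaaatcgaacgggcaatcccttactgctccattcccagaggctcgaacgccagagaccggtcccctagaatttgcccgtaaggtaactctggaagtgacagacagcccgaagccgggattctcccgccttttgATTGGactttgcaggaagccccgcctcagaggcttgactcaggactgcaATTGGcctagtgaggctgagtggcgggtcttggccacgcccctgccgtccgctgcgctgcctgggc
Mcub, chr3:129970207-129970456, minus strand: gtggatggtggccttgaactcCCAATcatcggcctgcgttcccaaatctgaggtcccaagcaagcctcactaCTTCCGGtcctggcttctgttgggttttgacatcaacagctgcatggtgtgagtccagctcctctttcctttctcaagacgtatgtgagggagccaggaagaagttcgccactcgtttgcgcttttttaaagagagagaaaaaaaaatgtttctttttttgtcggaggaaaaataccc
Vdac1, chr11:52360601-52360850, plus strand: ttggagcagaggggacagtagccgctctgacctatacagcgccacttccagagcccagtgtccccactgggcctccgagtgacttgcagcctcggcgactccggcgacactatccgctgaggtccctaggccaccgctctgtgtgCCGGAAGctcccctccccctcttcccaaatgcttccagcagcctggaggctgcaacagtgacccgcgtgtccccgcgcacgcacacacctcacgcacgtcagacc
The 4 motifs, of which none contains another, were searched on both strands: the CCAAT box (CCAAT), the ETS core (CCGGAAG), the GC box (GGGCGG) and the cAMP response element (TGACGTCA). Neither the GC box nor the cAMP response element was matched in the printed windows. The Mcu window held 2 CCAAT boxes, both on the reverse strand, with first bases 115 and 66 bases before the start. The Mcub window held 1 CCAAT box on the forward strand 229 bases before the start and 1 ETS core on the reverse strand 178 bases before it. The Vdac1 window held 1 ETS core, 105 bases before the start on the forward strand. A second annotated start of Vdac1 has a window at chr11:52361347-52361596, not printed, with 3 GC boxes on the forward strand. Over 32851 windows of the same length, 33.8% held a CCAAT box, 6.91% an ETS core, 32.7% a GC box and 1.55% a cAMP response element. GC content was 60.8% for Mcu, 48.0% for Mcub and 65.2% for Vdac1, against a median of 52.4% over those windows. A match describes letters and not a bound site.

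The WT libraries held 9370322 to 11744314 estimated counts and 5 of the RGECO libraries 5881622 to 11926220. RGECO replicate 4 held 825 counts, with all 8 genes at 0, and was left out. Markers of skeletal muscle summed to 20359 to 28732 counts per 1000000 (CPM) in WT and 25593 to 32363 in RGECO, with 1 of 10 higher and 1 lower by the edgeR test described below, which called 8.35% of all genes tested. Fibroblast markers summed to 5860 to 8155 CPM in WT and 2841 to 4318 in RGECO, with 3 of 6 tested lower and 1 higher, and their part in the results below was not tested. Markers of adipocytes summed to at most 0.776 CPM in any library, of endothelial cells to at most 4.35 and of immune cells to at most 33.8. Cd68 made up most of the immune sum, at a mean of 20.4 CPM in each line, while Ptprc was at 0.016 in WT and 0 in RGECO. Markers of dividing myoblasts summed to 166 to 282 CPM in WT and 168 to 220 in RGECO, with a median log2 fold change of −0.37. Of 7, Myf5 was called higher (log2 fold change 0.58) and Ccnb1 lower (−0.84). The 2 above 0 were Myf5 and Pax7 (0.46), while Mki67 (−0.52), Top2a (−0.37), Ccnb1, Cdk1 (−0.31) and Birc5 (−0.53) were below 0. Neuron markers summed to 56.9 to 74.4 CPM and 58.2 to 92.2, with 0 of 2 tested called. Stmn2 made up most of these sums, at means of 62.6 and 72.1 CPM, while Rbfox3 and Snap25 were at 0 in every library compared. Nothing in the labels ties replicates to separate cultures. The p-values therefore reflect how these libraries vary, which can be technical.

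In both lines the 8 genes stood in the same order of mean TPM (transcripts per 1000000, corrected for transcript length), with the outer-membrane channel highest and Micu3 lowest. Vdac1 was at 346 ± 39.3 TPM in WT (SD, n = 6) and 432 ± 55.0 in RGECO (SD, n = 5). Smdt1 followed at 122 ± 16.4 and 122 ± 11.3 TPM, and Mcu at 65.9 ± 10.2 and 77.8 ± 8.69. Those 3 genes did not overlap one another in range in either line, so the message for the small EMRE subunit stood above that of the pore it binds in 11 of 11 libraries. Mcub was at 43.3 ± 8.59 TPM in WT and 57.7 ± 11.97 in RGECO, Slc8b1 at 35.9 ± 9.45 and 39.3 ± 13.6, and Micu2 at 31.1 ± 9.08 and 32.6 ± 2.96. Letm1 was at 19.9 ± 6.38 TPM in WT and 20.3 ± 5.31 in RGECO, and Micu3 at 1.83 ± 1.26 and 1.55 ± 1.18. From Mcu down to Letm1 neighbours in this order overlapped, with 1 exception: Micu2 and Letm1 did not overlap in RGECO. Mcu was above Mcub in 6 of 6 WT and 4 of 5 RGECO libraries, while Slc8b1 was above Micu2 in 4 of 6 and 2 of 5. Over the 11 libraries the mean TPM of Vdac1 was 226 times that of Micu3.

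**Figure D1:**
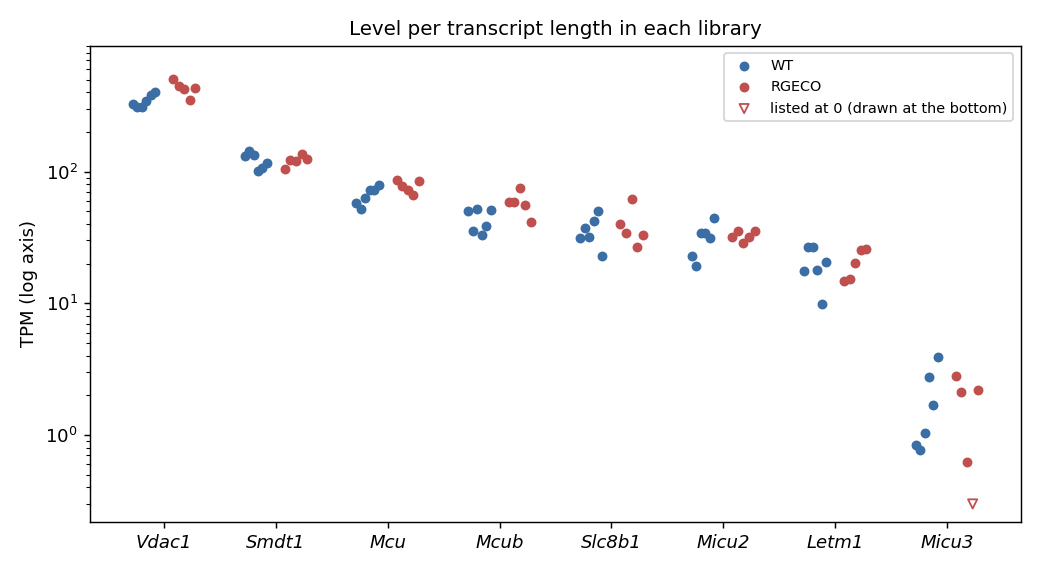
Level of each of the 8 genes in TPM on a log axis, 1 point per library, WT in blue and RGECO in red, with the RGECO library in which Micu3 is listed at 0 drawn at the bottom. Vdac1, Smdt1 and Mcu are apart from each other in both lines, neighbours from Mcub to Letm1 overlap in WT, Letm1 lies below Mcub, Slc8b1 and Micu2 in RGECO, and Micu3 lies below the rest in both.

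The TPM of Letm1 and Slc8b1 also moved with the transcript length that was estimated for them. The relative effective length implied by counts and TPM differed 2.30-fold between the longest and the shortest library for Letm1, a wider spread than in 91.0% of 8805 genes. For Slc8b1 it differed 2.12-fold and for Mcub 1.55-fold, against 1.03-fold for Mcu and 1.06-fold for Smdt1. Each gene was compared between the lines on counts, given as CPM scaled by TMM, while the ratios between genes further on use TPM. The counts were not corrected for length, so a difference in length between the lines can enter their fold changes. For Slc8b1 the mean log2 relative length was −0.11 in WT and 0.12 in RGECO.

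None of the 8 genes passed the test between the lines, against 8.35% of the 13318 genes tested (1112 genes, 3.42% higher in RGECO and 4.93% lower), by the quasi-likelihood F test of edgeR at a Benjamini-Hochberg adjusted p of 0.05. At an unadjusted p under 0.05 there was 1, Vdac1. A tested gene at an unadjusted edgeR p of 0.0480 had an adjusted p of 0.220, so that threshold was passed by many tested genes. DESeq2 called 1 of the 8, Vdac1, and 1596 of the 16680 genes it tested. By limma on log2(TPM + 1), 0 of the 8 and 605 of 13318 genes were called. The lines overlapped in CPM for 8 of 8 genes, while 7.97% of tested genes showed no overlap. The median log2 fold change of the 8, RGECO against WT, was 0.10, with 5 of 8 above 0, against a median of −0.01 and 48.5% above 0 over all tested genes. For 7 of 8 genes, all but Micu3, the 95% interval of the fold change lay within 1.5-fold either way, which held for 43.3% of tested genes and for 70.7% of the 5789 tested genes with a mean of at least 30 CPM. In bulk RNA, fewer cells that express a gene and less of its RNA per cell cannot be told apart.

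**Figure D2:**
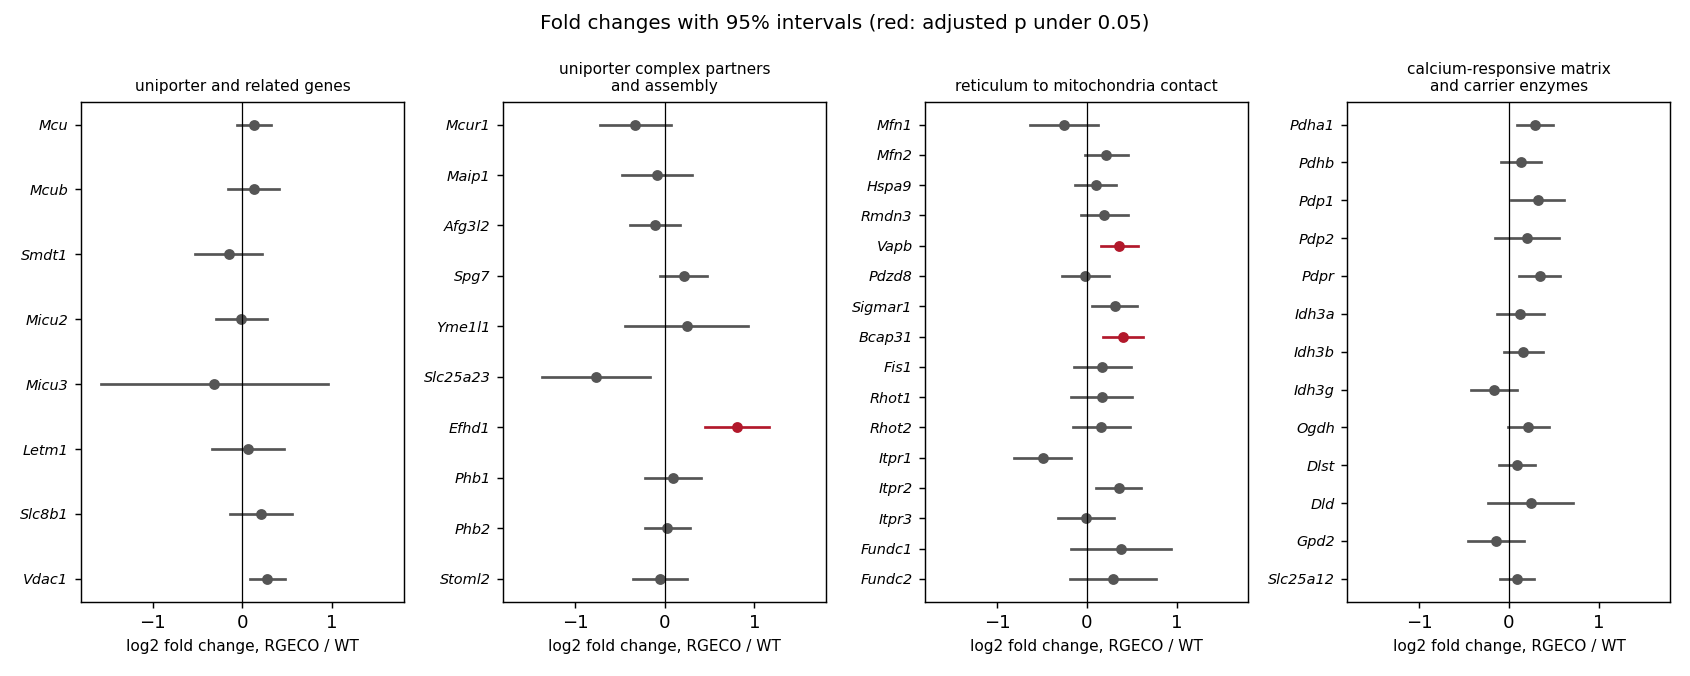
Log2 fold change, RGECO against WT, with its 95% interval from the edgeR fit, for the 8 genes (left) and for 3 lists of related genes, red where the adjusted p was under 0.05. Among the 8, the interval of Vdac1 lies above 0, from 0.08 to 0.47, and that of Micu3 is the widest, from −1.58 to 0.95, while Efhd1, Vapb and Bcap31 are the red points.

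Mcu, the pore gene (ENSMUSG00000009647, chr10:59446984-59616692 on the minus strand of GRCm38), was the steadiest of the set. In WT it ranged from 137 to 158 CPM with a median of 150, and in RGECO replicates 1, 2, 3, 5 and 6 it was at 164, 161, 156, 152 and 182 CPM. RGECO replicate 6 was the highest of the 11 libraries. RGECO replicates 1, 2 and 6 lay above every WT library, and replicates 3 and 5 lay within the WT range. The means were 149 ± 7.47 CPM (SD, n = 6) and 163 ± 11.7 (SD, n = 5). The log2 fold change was 0.13 (SE 0.09, 95% interval −0.06 to 0.32, adjusted p = 0.430). Libraries of a line differed by a coefficient of variation of 5.01% in WT and 7.16% in RGECO, the smallest of the set in each line. The common value of 25.2% over the tested genes comes from the edgeR dispersion over genes of all levels. It is not the same measure.

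Mcub, the paralogue that dampens the pore (ENSMUSG00000027994, chr3:129914960-129970206, minus strand), ranged from 28.4 to 40.8 CPM in WT with a median of 31.5. In the same RGECO libraries it was at 34.5, 35.7, 44.6, 32.6 and 30.2 CPM. WT replicate 1 and RGECO replicate 3 were the highest libraries of their lines, and the lines overlapped. The log2 fold change was 0.13 (SE 0.13, 95% interval −0.16 to 0.41, adjusted p = 0.645). On the log2(TPM + 1) scale it was 0.41 with a limma adjusted p of 0.198, beside the length estimate that moved 1.55-fold.

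Smdt1, which encodes EMRE (ENSMUSG00000022452, chr15:82338959-82349091, plus strand), split the WT libraries. Replicates 1, 2 and 3 were at 64.6, 78.3 and 56.3 CPM, and replicates 4, 5 and 6 at 41.9, 41.6 and 42.5. The RGECO libraries were at 38.2, 48.5, 48.6, 58.3 and 50.6 CPM, a narrower spread that lay across both sets of WT values. The log2 fold change was −0.15 (SE 0.18, 95% interval −0.52 to 0.22, adjusted p = 0.682), and it was 0.0076 on the log2(TPM + 1) scale. An exon of Smdt1 is shared with Pheta2 on the same strand, which held 44 counts over all libraries.

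Micu2, an EF-hand gatekeeper (ENSMUSG00000021973, chr14:57916261-57999262, minus strand), was level between the lines to within its error. It ranged from 43.3 to 70.0 CPM in WT, median 55.3, and was at 48.6, 60.4, 49.5, 55.0 and 60.8 CPM in RGECO. Every RGECO library lay inside the WT range. Its log2 fold change was −0.01 (SE 0.13, 95% interval −0.29 to 0.27, adjusted p = 0.978), and its sign held in 8 of 20 alternatives.

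Micu3, the gatekeeper best known from brain (ENSMUSG00000039478, chr8:40307458-40386308, plus strand), had the lowest counts of the set. In WT it had 17, 16, 18, 51, 36 and 66 counts in replicates 1 to 6, and in RGECO 33, 38, 12, 0 and 46. These are 1.78 to 6.41 CPM in WT with a median of 2.42, and 4.43, 3.74, 1.15, 0 and 3.84 CPM in RGECO. WT replicates 4 and 6 were highest, and RGECO replicate 5, the smallest of the libraries compared, had no count, which allows up to 0.510 CPM. The 95% interval of the fold ran from 0.335 to 1.94 (log2 fold change −0.31, SE 0.59, adjusted p = 0.823), so a difference within those bounds could not be told from the spread between these libraries. Exons of Micu3 overlap Fgf20 and Mir7666 on the opposite strand, both with 0 counts.

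Letm1, the inner-membrane exchanger (ENSMUSG00000005299, chr5:33739673-33782817, minus strand), split WT along the same libraries as Smdt1. WT replicates 1 to 3 were at 50.9, 54.2 and 46.1 CPM and replicates 4 to 6 at 30.2, 31.4 and 31.3, while RGECO was at 32.9, 40.6, 45.7, 56.9 and 36.8. The RGECO values spread over nearly the whole WT range and reached above it in replicate 5. Between the lines the log2 fold change was 0.06 (SE 0.19, 95% interval −0.34 to 0.47, adjusted p = 0.894).

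Slc8b1, the sodium-calcium exchanger NCLX (ENSMUSG00000032754, chr5:120511168-120534024, plus strand), was at 67.6, 75.3, 66.4, 42.8, 49.4 and 42.7 CPM in WT replicates 1 to 6. The RGECO libraries were at 70.0, 59.2, 80.5, 60.0 and 61.9 CPM, all above the lower WT libraries and mixed with the higher ones. RGECO against WT, the log2 fold change was 0.21 (SE 0.16, 95% interval −0.13 to 0.56, adjusted p = 0.503). On the log2(TPM + 1) scale it was 0.11 with a limma adjusted p of 0.828.

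Vdac1, the outer-membrane channel (ENSMUSG00000020402, chr11:52360860-52389397, plus strand), came nearest to a difference. It was at 512, 458, 459, 522, 549 and 540 CPM in WT and at 656, 648, 594, 545 and 624 CPM in RGECO. RGECO replicate 5 lay just under WT replicate 5, and the other RGECO libraries were above every WT library. The means were 507 ± 39.6 CPM (SD, n = 6) and 613 ± 45.3 (SD, n = 5), a fold of 1.21 (95% interval 1.06 to 1.38). In log2 this was 0.28 (SE 0.09), with an edgeR adjusted p of 0.0760. By DESeq2, which called 1596 of 16680 genes, the adjusted p was 0.0301. With each library's mitochondrial share of counts as a covariate, edgeR gave a log2 fold change of 0.32 (adjusted p = 0.00435). With the Malat1 share as covariate it was 0.33 (adjusted p = 0.00813). Those 2 covariate fits called 3133 and 2771 of 13318 genes, against 1112 in the main fit. Vdac1 did not pass in the other alternatives. The edgeR adjusted p was 0.0510 to 0.158 with 1 library left out, 0.171 with a replicate block and 0.272 without the filter. By limma on log2(TPM + 1) the adjusted p was 0.129.

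**Figure D3:**
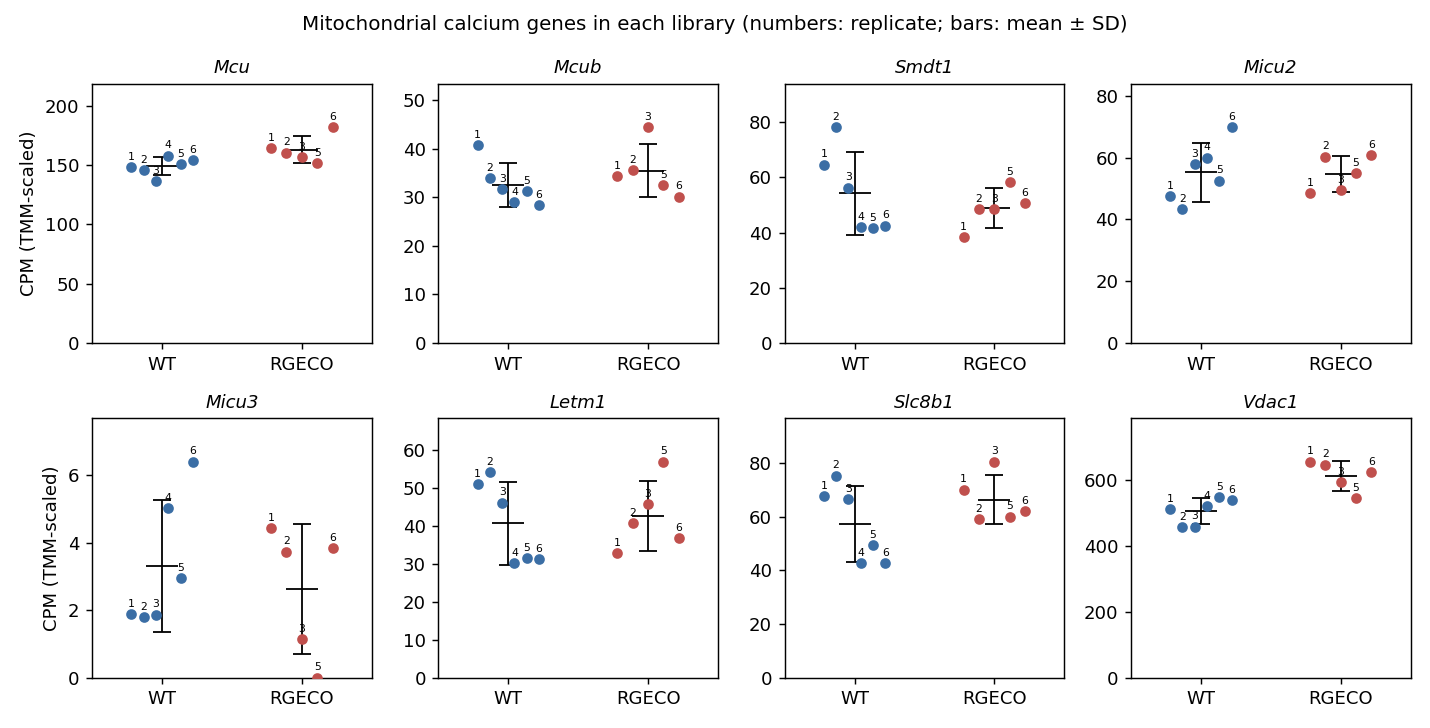
CPM of each gene in every library, 1 panel per gene with its own axis from 0, WT (n = 6) beside RGECO (n = 5), points numbered by replicate and bars at the mean ± SD. The lines overlap in every panel, and in Vdac1 only RGECO replicate 5 lies within the WT range.

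The relations inside the complex were given as ratios of TPM. Smdt1 stood at 192% ± 55.0 of Mcu in WT (SD, n = 6) and 160% ± 31.2 in RGECO (SD, n = 5). The WT libraries were at 227%, 275%, 214%, 142%, 147% and 148%, and the RGECO libraries at 121%, 159%, 166%, 207% and 146%. The lines overlapped between 142% and 207%, with WT replicates 1 to 3 above all RGECO libraries. Mcub stood at 66.9% ± 16.1 of Mcu in WT and 75.5% ± 20.3 in RGECO, from 45.6% to 87.2% in WT and from 48.2% to 103% in RGECO. The log2 difference of this ratio was 0.17 on TPM and −0.0055 on estimated counts. Micu2 was at 46.4% ± 7.94 and 42.2% ± 4.59 of Mcu, and Micu3 at 2.62% ± 1.46 and 1.88% ± 1.37. Micu3 was at 5.50% ± 2.41 of Micu2 in WT and 4.63% ± 3.49 in RGECO. Two-sided exact permutation tests on the log2 ratios gave adjusted p-values from 0.804 to 0.967 over the 5 ratios, and those with Micu3 left out RGECO replicate 5, where Micu3 was at 0.

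**Figure D4:**
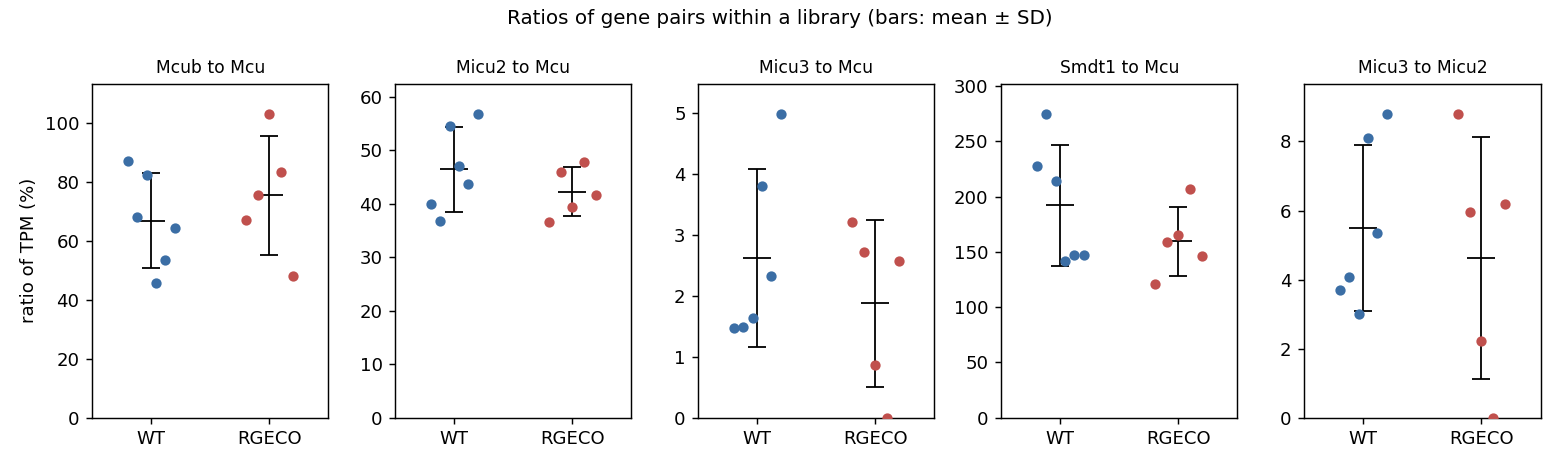
Ratios between genes of the complex in percent of TPM, 1 point per library, with bars at the mean ± SD of each line and an axis from 0 in each panel. The lines overlap in all 5 ratios, and Smdt1 to Mcu has the widest range, from 121% to 275%.

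Around the complex, 10 partner and assembly genes were all tested, and 1 was higher in RGECO, 0 lower, with a median log2 fold change of −0.01. A share of 8.35% over all tested genes was called, so 1 of 10 is near the background. That gene was Efhd1, a mitochondrial calcium-binding EF-hand protein, which rose from 39.7 ± 9.10 CPM in WT (SD, n = 6) to 69.4 ± 14.9 in RGECO (SD, n = 5). WT libraries were at 31.7, 31.1, 55.4, 44.3, 37.1 and 38.5 CPM and RGECO libraries at 71.0, 62.0, 62.8, 94.5 and 56.8. The lines did not overlap in CPM, as for 7.97% of tested genes, although WT replicate 3 came close to RGECO replicate 6. The log2 fold change of Efhd1 was 0.80 (SE 0.17, 95% interval 0.45 to 1.16, adjusted p = 0.00688).

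Of 16 genes of the contact between the endoplasmic reticulum and mitochondria, 2 were higher in RGECO and 0 lower (median log2 fold change 0.19, 12 of 16 above 0), against 3.42% of tested genes higher and 48.5% above 0. The 16 log2 fold changes ran from −0.49 to 0.40, and the largest in size was a decrease that did not pass by edgeR. At an unadjusted p under 0.05 there were 5, as for many tested genes. DESeq2 called 3, against 1596 of 16680 genes, and limma on log2(TPM + 1) called 0, against 605 of 13318. Bcap31, a chaperone and sorting protein of the reticulum, rose by a log2 of 0.40 (SE 0.11, adjusted p = 0.0269), from 135 ± 12.8 CPM in WT to 178 ± 21.0 in RGECO. Vapb, a reticulum tether, rose by 0.36 (SE 0.10, adjusted p = 0.0314), from 75.2 ± 5.51 to 96.7 ± 8.35 CPM. The lines did not overlap in CPM for either gene, as for 7.97% of tested genes, but in TPM they overlapped for both. Leaving out 1 library ended the call of Bcap31 (WT replicate 1 adjusted p = 0.0641, RGECO replicates 2 and 5 0.0730 and 0.0655) and of Vapb (WT replicates 3 to 6 and RGECO replicates 1, 3 and 5, 0.0555 to 0.0743), and both limma fits on TPM, no filter, the replicate block and the fit of all 12 libraries also ended both.

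Of the calcium-responsive enzymes of the matrix and its carriers, 13 of 14 were tested and 0 passed by edgeR. At an unadjusted p under 0.05 there were 3, DESeq2 called 2 and limma 0. Over all tested genes, edgeR called 8.35%, DESeq2 1596 of 16680 and limma 605 of 13318, and many had an unadjusted p under 0.05. The median log2 fold change of these enzymes was 0.16, with 11 of 13 above 0, against −0.01 and 48.5% over all tested genes. Of the mitochondrially encoded messages, 12 of 13 were tested and 0 passed by edgeR, with 2 at an unadjusted p under 0.05, 1 called by DESeq2 and 0 by limma. Their median was −0.85, with 1 of 12 above 0. Their summed level ran from 1974 to 14337 CPM in WT and from 2884 to 10818 in RGECO, and the lines overlapped in it.

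Some of the 8 genes varied together between libraries of the same line. After each line's mean was subtracted from log2 CPM, Pearson's r over the 11 libraries ran from −0.85 to 0.93 in the 28 pairs of genes. By permutation within lines, 6 of 28 pairs passed an adjusted p of 0.05. How many pairs of other genes would pass was not computed, so the count cannot be called a trait of these genes. The relations were chosen after values were seen. Letm1 and Smdt1 were closest, at r = 0.93 (permutation p = 3.2e-04, adjusted p = 0.00448) and Spearman's rho = 0.92 (permutation p = 0.00189, adjusted p = 0.0164). Without RGECO replicate 5 and WT replicate 4, the 2 libraries farthest from the median of Letm1, r was 0.93, and it ran from 0.92 to 0.97 with each library left out. On TPM it was 0.72, where the length estimate of Letm1 also enters. Libraries rich in Letm1 were poorer in Vdac1 (r = −0.85, permutation p = 0.00325, adjusted p = 0.0227, rho = −0.83, permutation p = 0.00591, adjusted p = 0.0276). The same held for Smdt1 and Vdac1 (r = −0.78, permutation p = 0.00993, adjusted p = 0.0463, rho = −0.87, permutation p = 0.00213, adjusted p = 0.0164). Without the 2 farthest libraries r was −0.81 for the first of these pairs and −0.88 for the second. The other pairs that passed were Letm1 with Micu3 (r = −0.79, adjusted permutation p = 0.00448), Micu3 with Vdac1 (r = 0.79, adjusted permutation p = 0.0190) and Mcub with Slc8b1 (r = 0.72, adjusted permutation p = 0.0415, but 0.0508 for rho).

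The same libraries also differed in measures of the library itself. The share of counts in Malat1, a long non-coding RNA that stays in the nucleus, ran from 0.156% to 0.898% in WT and from 0.180% to 0.645% in RGECO, and the mitochondrially encoded share from 0.204% to 1.68% and from 0.298% to 1.33%. Of the 8 genes, 8 had an absolute r above 0.5 with both shares, against 52.5% of tested genes for the Malat1 share and 55.9% for the mitochondrial share. Of 24 relations with the Malat1 share, the mitochondrial share and the library total, 3 passed, and the count for other genes was not computed. Letm1 and Smdt1 were lower where the Malat1 share was higher (r = −0.84 and −0.80, permutation p = 0.00233 and 0.00598, adjusted p = 0.0306 and 0.0478, rho = −0.77 and −0.63, adjusted permutation p = 0.0643 and 0.0979, which does not pass), and without RGECO replicate 3 and WT replicate 2 r was −0.81 and −0.73. Mcu was higher where the mitochondrial share was higher (r = 0.80, permutation p = 0.00255, adjusted p = 0.0306, rho = 0.85, permutation p = 0.00212, adjusted p = 0.0254), and without WT replicates 4 and 6 r was 0.77. Their part in the differences between libraries was not tested.

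**Figure D5:**
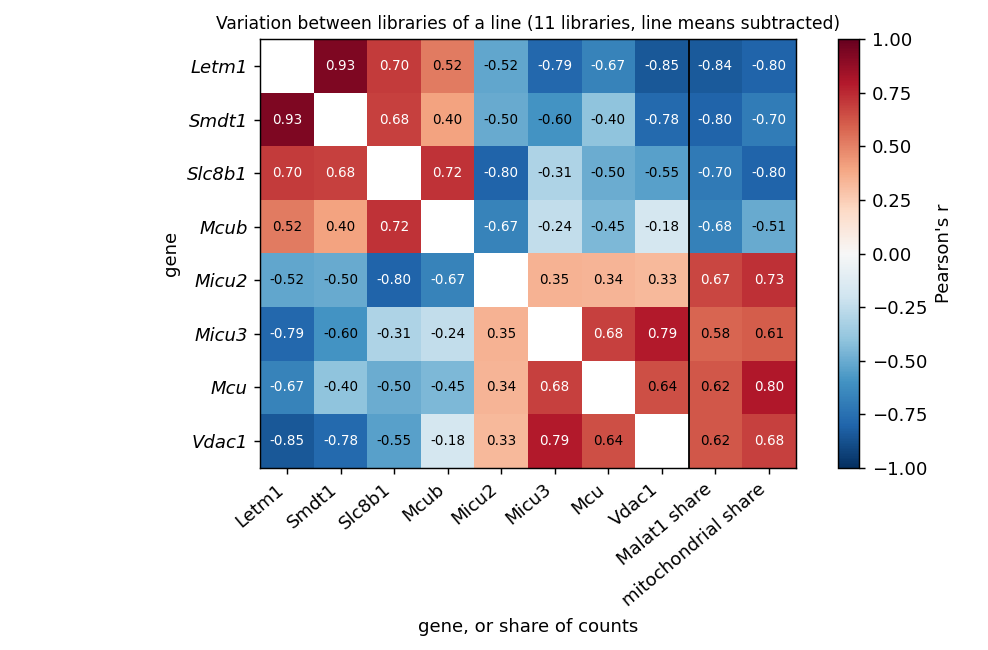
Pearson's r between the 8 genes, and of each gene with the Malat1 and mitochondrial shares of counts, over 11 libraries after line means were subtracted, red above 0 and blue below. Letm1, Smdt1, Slc8b1 and Mcub are positive with one another and negative with both shares, and the other 4 genes are positive with both shares.

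The genes most like the pore subunits in this within-line pattern were taken as the 3 with the highest r among 7628 candidates whose log2 CPM averaged 4 or more, over 11 libraries, as a description with no test. For Mcu these were Ddhd1 (r = 0.97), Rybp (0.95) and Gng2 (0.93). For Mcub they were Arpc1a (0.94), Cd81 (0.93) and Rps2 (0.91), and for Smdt1 Rplp2 (0.97), Klhl21 (0.96) and Ptpa (0.96).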

How the data were processed

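Per the labels' protocols, libraries of poly(A) RNA were amplified for 14 cycles and read as 50-base pairs. The authors deposited Salmon estimated counts per gene, not normalised, and TPM per gene, scaled within each library. The submitters' processing notes name STAR, Salmon, bedtools 2.25.0 and BWA 0.7.12-r1039, and the builds GRCm39, mm10 and hg19, with no role given. The strand setting is not given in the sources used here, so antisense reads cannot be told apart. Gene coordinates come from GENCODE M21 on GRCm38 by gene ID.

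Estimated counts were rounded and tested in edgeR 4.0.16 (R 4.3.3) with filterByExpr, TMM, robust quasi-likelihood F tests and Benjamini-Hochberg adjustment over 13318 genes, at 0.05. The test was checked on simulated data. Libraries under 1000000 counts were left out. DESeq2 1.42.0 and limma 3.58.1 on log2(TPM + 1) and log2(TPM + 0.1) were alternatives, with no filter, another scaling, all 12 libraries, a replicate block, library shares as covariates and each library left out. The floor of 3 counts is 0.252 to 0.510 CPM and covers counting error only. Counts differed by a chi-square per gene of at least 7.61 in all 25 same-line pairs of libraries, so no library was a copy of another. Each was counted as a separate sample, although this check cannot tell separate cultures from separate preparations of 1 culture. Ratios were tested by exact permutation over the libraries, and correlations with 100000 permutations within lines in Python 3.11.15. Of the lists other than cell type markers, genes past the threshold were named. Myf5, Ccnb1 and the other single cell type markers were named after their values were seen. The 8 genes and the lists were chosen with earlier results of these data known. A further gene of the lists is not reported here.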

Additional observations from a re-analysis of the deposited data

How the results depend on the processing

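Leaving out RGECO replicate 4 was decided on its total, and with all 12 libraries the fit called 820 genes (237 higher, 583 lower) against 1112 (456 higher, 656 lower). limma called 605 genes on log2(TPM + 1) (344 higher, 261 lower) and 587 on log2(TPM + 0.1), where the median log2 fold change of all genes was 0.09 and 0.10 against −0.01. With the mitochondrial share as covariate 3133 genes were called and with the Malat1 share 2771, and leaving out 1 library gave 785 to 1140. The cause was not tested.

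Vdac1 passed with DESeq2 (0.29), the mitochondrial share (0.32) and the Malat1 share (0.33), kept its direction in 20 of 20 alternatives and lay between 0.25 and 0.32 with 1 library left out. With all 12 libraries it was 0.07. Micu2 turned to 0.0029 with RLE size factors, 0.0016 with DESeq2, 0.11 and 0.12 on TPM, 0.026 with the replicate block, 0.082 with the mitochondrial and 0.11 with the Malat1 share, and ran from −0.065 to 0.077 with 1 library left out. Micu3 turned to 0.16 and 0.25 with those shares, and Letm1 to −0.066 and −0.14, with a range from −0.057 to 0.17 when 1 library was left out. Smdt1 turned to 0.0076 and 0.0077 on TPM. Mcub to Mcu turned to −0.0055 with a ratio of estimated counts and Micu3 to Mcu to 0.031 with the block. With 1 library left out, Micu3 to Mcu ran from −0.35 to 0.28 and Micu3 to Micu2 from −0.23 to 0.44, and as a difference of linear ratios, added after seeing the data, the second was −0.87 percentage points. Mcu, Mcub and Slc8b1 kept their direction in 20 of 20 alternatives and never passed. Efhd1 kept its call in 20 of 20.

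Replicate numbers did not pair the samples: same-numbered libraries deviated together with r from −0.15 to 0.36, and 1 of 5 numbers correlated best with itself. With a replicate block 777 genes were called. Of the 8 genes, Micu3 in RGECO replicate 5 alone was under the floor of 3 counts among the 11 libraries compared.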

Other observations

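Beyond the calcium route, the other channel and carrier genes of the mitochondrial membranes showed no gene past the threshold, 0 of 14 tested by edgeR. Of these, 2 had an unadjusted p under 0.05, as many tested genes did, and DESeq2 and limma called 0. Their median log2 fold change was 0.09 with 10 of 14 above 0, against −0.01 and 48.5% over all tested genes. Among the outer-membrane channels, Vdac1 made up 59.6% ± 4.90 of the summed TPM of Vdac1, Vdac2 and Vdac3 in WT (SD, n = 6) and 62.3% ± 3.51 in RGECO (SD, n = 5). Vdac2 was at 136 ± 24.8 and 148 ± 20.4 TPM, and Vdac3 at 105 ± 46.6 and 115 ± 35.8 TPM. The nuclear-encoded mitochondrial housekeeping genes, such as import receptors and subunits of the respiratory chain, had 0 of 18 past the threshold by edgeR. Their median was 0.06. Of these 18, 2 had an unadjusted p under 0.05, DESeq2 called 1 (against 1596 of 16680 genes) and limma 0.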
